A study of Mus musculus with 16 samples.

Results

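The genes described here are 43 interferon-stimulated and antigen presentation genes, which act in the innate response to foreign RNA and in the display of peptides on class I molecules. They were chosen by name for these functions, with no measured value in the rule, but with earlier results of these data known. Of the 43, 35 were listed among the 13015 genes of the expression table. The other 8 (Ifih1, Ifit1, Usp18, Oasl2, Rsad2, Gbp3, Rtp4 and Parp14) were not listed there and were not analysed here, so all counts refer to the 35 listed genes. By role, these comprised 6 RNA sensors and their adaptor, 8 genes of the interferon receptor and its transcription factors, 11 induced effectors, 4 PARP, DTX and TRIM genes, and 6 class I presentation genes.

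The study asked which RNAs are enriched in fibroblast protrusions and whether their enrichment requires adenomatous polyposis coli (APC), a tumor suppressor protein that binds RNA and microtubule ends. RNA was sequenced from protrusions (Ps) and cell bodies (CB) of NIH/3T3 cells, an established mouse fibroblast line. Cells without serum sat for 2 h on a filter whose pores measured 3.0 µm, then for 1 h above lysophosphatidic acid (LPA, a lipid attractant), and were fixed (10 min, 0.3% paraformaldehyde), so that what had grown through the pores could be collected apart from what stayed above. There were 4 groups of 4 libraries, namely siControl CB and siControl Ps from cells given a negative control siRNA, and siAPC CB and siAPC Ps from cells given siRNA against Apc. Every group had been starved of serum, transfected with an siRNA by a lipid reagent and exposed to LPA, the labels name no added interferon, and there was no untransfected group. The levels are thus those of transfected cells without added interferon. The study calls its replicates independent but the labels do not say that they were separate cultures, and if they were not, the p-values measure technical spread.

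Cells detect viral RNA with receptors such as RIG-I (Ddx58) and TLR3, whose signals pass through adaptors to the factors IRF3 and IRF7 and induce type I interferon. Interferon binds the receptor of IFNAR1 and IFNAR2, and a complex that holds STAT2 and IRF9 then binds a short element, the interferon-stimulated response element (ISRE), upstream of antiviral effector genes. Interferon also raises the class I pathway, in which the transporter of TAP1 and TAP2 carries peptides into the endoplasmic reticulum, tapasin (Tapbp) helps to load them, and the heavy chains H2-K1 and H2-D1 carry them to the surface together with the light chain B2m. Fibroblasts hold this machinery without infection, at levels that differ from gene to gene.

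Levels were log2 CPM, the log2 of a gene's reads relative to a common library size, scaled between libraries by the authors. Listed genes received 13466225 to 20296087 reads per library, and 3 reads, taken as the smallest detectable number, corresponded to a log2 CPM between -2.73 and -1.80. A log2 CPM is a share of a library, so a change in RNA per cell and a change in the share of other RNAs cannot be told apart. All 8 fibroblast markers searched were listed, with a summed log2 CPM of 14.46 to 15.68, against 2 of 8 leukocyte markers (Cd68 and Csf1r, summed 2.09 to 2.91) and 3 of 6 epithelial and endothelial markers (Cdh1, Krt8 and Pecam1, summed 3.03 to 3.47). Apc was lower with siAPC by 1.67 on the log2 scale in CB (SE 0.25, adjusted p = 1.42e-04) and by 1.84 in Ps (SE 0.25, adjusted p = 3.11e-05). In replicates 1 to 4 the log2 CPM of Apc was 2.13, 2.59, 3.54 and 2.17 in siControl CB against 0.54, 1.42, 1.02 and 0.75 in siAPC CB, and 3.52, 3.73, 3.29 and 3.56 in siControl Ps against 1.63, 1.90, 1.87 and 1.33 in siAPC Ps. In 4 libraries (siControl CB replicate 3, siControl Ps replicate 2, siAPC CB replicate 2 and siAPC Ps replicate 2) expression relative to the group fell with the GC content of transcripts (Spearman correlation across genes -0.65 to -0.52), whereas in the other 12 it lay between -0.04 and 0.54, highest in siAPC CB replicate 3. Calls that changed without the 4 libraries are given beside the genes. The summed fibroblast markers were lower in Ps (14.46 to 14.60 in siControl and 14.75 to 14.88 in siAPC) than in CB (15.18 to 15.31 and 15.53 to 15.68), and reads of mitochondrial genes made up 2.18% to 4.16% of Ps and 1.37% to 1.95% of CB libraries. Their part in the results was not tested.

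The ISRE links these genes to interferon, so its copies in the listed members are shown first. The letters searched were GAAA, any 2 bases and GAAA again, on either strand, in a window from 250 bases before to 50 bases after the annotated start (RefSeq, GRCm38.p6). A window was found for 31 of the 35 listed genes (none for Dhx58, Ifi27, Parp9 or Tap2), and 11 of the 31 held the motif. It occurred in 3.41% of the 9170 listed genes with a window and in 3.44% of all 32851 windows. The interferon-gamma activated motif (TTC, any 3 bases, GAA) was found in 9 of the 31 and in 8.07% of listed genes, and it overlapped the ISRE letters in Bst2 and Ifitm3. The 6 stretches below carry the ISRE letters in capitals with 25 bases on each side (in Trim12c downstream only as far as the annotated start), read 5′ to 3′ along the gene. They were chosen because the genes come from different roles and lay on both sides of 0 in the comparison of fractions.
Isg15 (chr4:156200850-156200921, minus strand): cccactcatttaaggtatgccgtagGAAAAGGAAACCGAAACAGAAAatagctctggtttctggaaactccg
Ifit3 (chr19:34583348-34583441, plus strand): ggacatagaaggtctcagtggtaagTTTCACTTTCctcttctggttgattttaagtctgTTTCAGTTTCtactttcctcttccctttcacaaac
Bst2 (chr8:71537562-71537627, minus strand): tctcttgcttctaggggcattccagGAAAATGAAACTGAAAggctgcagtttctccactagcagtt
Trim12c (chr7:104353350-104353403, minus strand): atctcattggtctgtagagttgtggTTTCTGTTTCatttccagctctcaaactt
B2m (chr2:122147523-122147582, plus strand): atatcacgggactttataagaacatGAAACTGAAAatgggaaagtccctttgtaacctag
Stat2 (chr10:128270251-128270310, plus strand): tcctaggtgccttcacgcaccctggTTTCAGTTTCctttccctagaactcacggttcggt

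Isg15 held 3 overlapping copies, beginning 78 bases before its start, and Bst2 held 2 beginning 130 bases before. Ifit3 held 2 separate copies, the farther beginning 156 bases before the start. Single copies began 29 bases before the start in Trim12c, 139 in B2m and 222 in Stat2. A copy was also found in Ddx58, Eif2ak2, Ifitm2, Ifitm3 and Gbp2. A match describes the letters of the reference genome and says nothing of whether a factor binds there.

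Among the 35 genes the level per kb of exon ranged widely in the siControl CB libraries. The highest was that of Ifitm2, a small membrane protein that blocks viral entry, with 778 ± 90.1 CPM per kb (SD, n = 4). It was followed by H2-D1 with 362 ± 35.9, its relative Ifitm3 with 337 ± 49 and B2m with 233 ± 8.59 CPM per kb, and by Tapbp with 108 ± 9.4. The spreads of H2-D1 and Ifitm3 overlapped, and B2m lay below both by more than their SDs. The lowest were Tlr3 with 0.427 ± 0.234, Trim12c with 0.315 ± 0.197 and Ifit3 with 0.203 ± 0.0642 CPM per kb, whose spreads overlapped. Ifit3 rested on 5 to 8 reads per siControl CB library. By comparison, Ifitm2 had at least 6777 reads in every library.

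**Figure D1:**
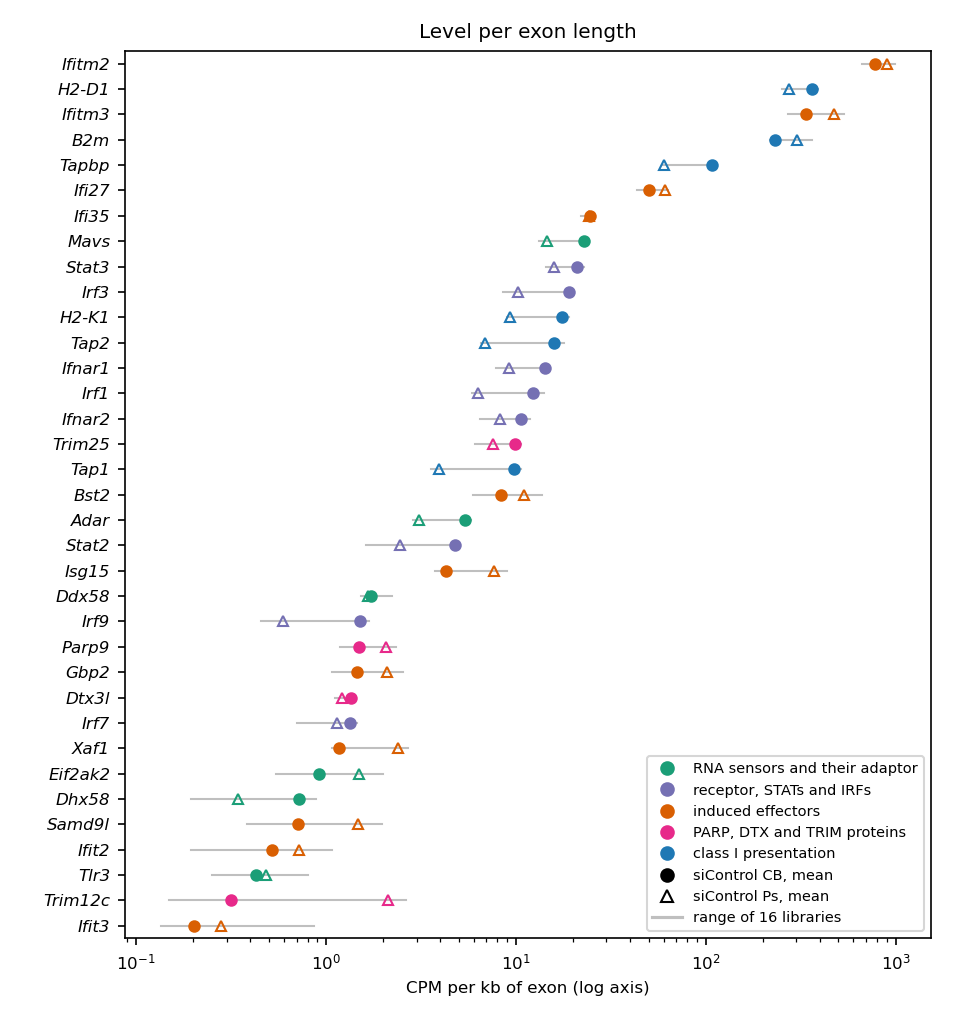
Level of each of the 35 listed genes in CPM per kb of exon on a log axis, as the mean of 4 siControl CB libraries (filled circles) and 4 siControl Ps libraries (open triangles), with a grey line for the range over 16 libraries and colours for roles. Ifitm2 is highest (778 in siControl CB) and Ifit3 lowest (0.203).

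The first comparison asked how these RNAs divide between protrusions and cell bodies of control cells. In siControl, 11 of the 35 genes were higher in Ps, against 29.1% of all genes, and 16 were lower, against 31.2% of all genes (limma, adjusted p below 0.05). Of the 8 receptor, STAT and IRF genes 7 were lower in Ps and 0 higher, and of the 6 class I genes 5 were lower and 1, B2m, was higher. Of the 11 effectors 7 were higher in Ps and 0 lower with the authors' scaling, but after a loess correction of each library for GC content and length 2 were higher (Samd9l and Xaf1) and 4 lower (Ifi35, Ifi27, Ifitm2 and Ifitm3). The sensors gave 1 higher and 3 lower, and the PARP, DTX and TRIM genes 2 higher and 1 lower. The median of the 35 log2 fold changes was -0.17, and that of all genes was -0.00. The loess correction sets each library against the mean of all 16 libraries. It therefore also removes any difference between the fractions that goes with GC content or length. Which of the 2 treatments lies closer to the RNA of the cells was not tested.

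**Figure D2:**
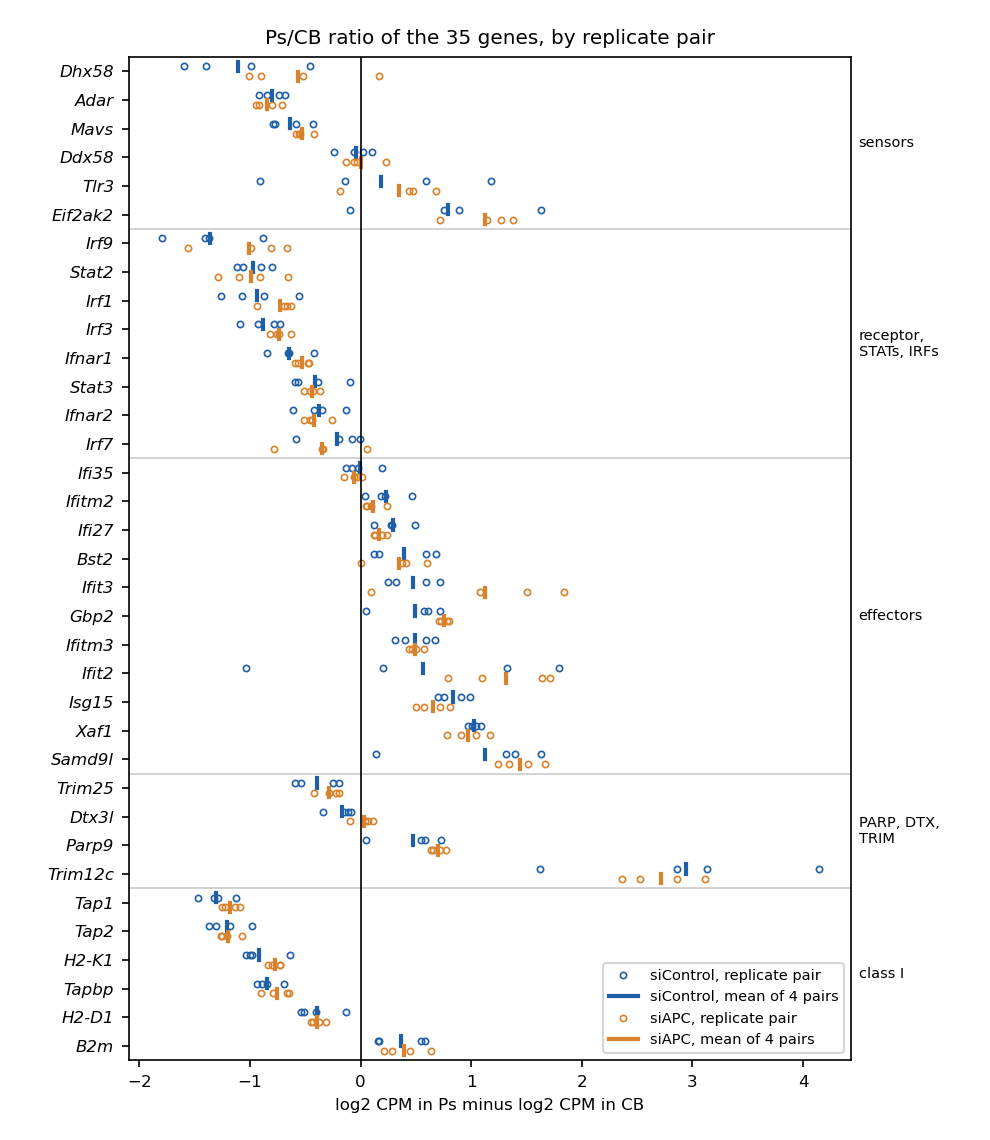
Ps/CB ratio of each of the 35 listed genes by role, as log2 CPM in Ps minus log2 CPM in CB for each of 4 same-numbered pairs (circles) and their mean (bars), in siControl (blue) and siAPC (orange). In siControl the libraries of a pair may share only a number (mean correlation of deviations 0.13, lowest -0.12), so the spread of its circles is not that of matched samples. The receptor, STAT and IRF means all lie below 0, and B2m alone of the class I genes lies above 0, a direction that turns after correction for GC content and length.

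Trim12c showed the largest Ps/CB ratio of the 35. It encodes a mouse TRIM protein of the TRIM5 family, which restricts retroviruses, and lies at chr7:104338754-104353362. In replicates 1 to 4 its log2 CPM was 0.21, -0.84, 1.15 and -0.35 in siControl CB and 3.07, 3.30, 2.77 and 2.78 in siControl Ps. Its siAPC values were -0.31, 0.26, 0.33 and 0.36 in CB and 2.80, 3.12, 2.86 and 2.72 in Ps. Every Ps library lay above every CB library, and siControl CB replicate 3 was the highest of the CB libraries. Ps exceeded CB by 2.94 on the log2 scale in siControl (SE 0.30, 7.66-fold, adjusted p = 8.74e-08) and by 2.72 in siAPC (SE 0.30, 6.57-fold, adjusted p = 2.95e-07). The CB libraries held 9 to 51 reads of it and the Ps libraries 97 to 138. Of its exon sequence 33%, by 50-base words, also occurs in other genes, chiefly Trim5 and Trim12a, so reads of these relatives may be mixed.

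The effectors that rose most in siControl Ps were Samd9l, Xaf1 and Isg15. Samd9l, a relative of SAMD9 that restricts poxviruses, had a log2 CPM of 1.44, 1.78, 2.69 and 1.53 in siControl CB and 2.75, 3.42, 2.82 and 2.93 in siControl Ps. Its Ps/CB log2 fold change was 1.12 (SE 0.24, adjusted p = 5.27e-04), and the highest CB library (2.69, replicate 3) lay just below the lowest Ps library (2.75). Xaf1, a pro-apoptotic binding partner of XIAP (chr11:72301629-72313733), was steadier, with 2.46, 2.62, 2.39 and 2.35 in CB and 3.47, 3.59, 3.43 and 3.44 in Ps. Its log2 fold change was 1.03 (SE 0.12, adjusted p = 5.62e-07), with no overlap between the fractions. In siAPC Samd9l was at 1.64, 1.85, 1.23 and 1.05 in CB and at 2.98, 3.09, 2.89 and 2.57 in Ps, with a log2 fold change of 1.44 (SE 0.24). Xaf1 was at 2.41, 2.76, 2.4 and 2.33 in siAPC CB and at 3.19, 3.67, 3.44 and 3.5 in siAPC Ps, with a log2 fold change of 0.98 (SE 0.12). Both genes were without overlap between the fractions of siAPC. Samd9l was at 0.75 in siControl and 0.86 in siAPC after the correction for GC content and length, called higher in each.

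Isg15 encodes a ubiquitin-like protein that is attached to other proteins after interferon (chr4:156199424-156200818). Its log2 CPM was 1.82, 1.60, 1.50 and 1.82 in siControl CB and 2.73, 2.59, 2.20 and 2.57 in siControl Ps, with no overlap between the fractions. The siAPC libraries gave 2.17, 2.04, 2.03 and 1.71 in CB and 2.74, 2.76, 2.54 and 2.52 in Ps, again without overlap. Isg15 was thus higher in Ps by 0.84 in siControl (SE 0.14, adjusted p = 5.95e-05) and by 0.65 in siAPC (SE 0.14, adjusted p = 7.58e-04). After the correction for GC content and length it was 0.25 in siControl and 0.11 in siAPC and no longer passed the threshold in either.

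The remaining effectors were higher in Ps by smaller amounts or did not pass. The membrane proteins Ifitm3, Ifi27 and Ifitm2 were higher in siControl Ps by 0.49 (SE 0.09), 0.29 (SE 0.07) and 0.22 (SE 0.07) on the log2 scale, but these directions were not kept under other treatments. Scaled to total listed reads, Ifi27 was at -0.01 and Ifitm2 at -0.07, and after the correction for GC content and length Ifitm3, Ifi27 and Ifitm2 were at -0.17, -0.18 and -0.36 and called lower. Scaling to total listed reads moved the median of all genes to -0.30, so Ifi27 and Ifitm2 stayed above it. Gbp2, a GTPase that attacks the vacuoles of intracellular parasites, was higher by 0.48 (SE 0.19, adjusted p = 0.036), a call that was lost in 6 of the 8 fits that left out 1 library of siControl and without the 4 libraries that fell with GC content (0.42, adjusted p = 0.105). Bst2 (tetherin, which holds budding viruses at the surface), Ifit2, Ifit3 and Ifi35 did not pass, with log2 fold changes of 0.39, 0.57, 0.47 and -0.01. Scaled to total listed reads, Ifi35 was called lower in siControl (-0.31, adjusted p = 2.45e-04) and in siAPC (-0.21, adjusted p = 0.00546). In siAPC Bst2 had a log2 fold change of 0.35, and it was called higher there with the replicate number as a block (adjusted p = 0.0305). Of Ifitm2, 48.5% of the exon sequence by 50-base words also occurs elsewhere, chiefly in the overlapping gene Gm45717, and of Ifitm3 10%.

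Of the genes of the receptor, STATs and IRFs, all but Irf7 were called lower in Ps in both siRNAs. Irf9, the DNA-binding partner of the STATs (chr14:55603571-55610030), had a log2 CPM of 3.09, 2.93, 2.96 and 3.12 in siControl CB and 1.29, 2.05, 1.58 and 1.71 in siControl Ps. With siAPC it was 2.98, 3.02, 3.18 and 2.91 in CB and 2.17, 2.34, 1.62 and 1.92 in Ps. No Ps library reached the lowest CB library. Its log2 fold change came to -1.37 in siControl (SE 0.16, adjusted p = 7.05e-07) and -1.01 in siAPC (SE 0.16, adjusted p = 3.03e-05).

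Stat2, which carries the activating part of the same complex (chr10:128270559-128292849), was read at 4.84, 4.85, 4.75 and 4.89 log2 CPM in siControl CB and at 3.78, 4.05, 3.85 and 3.77 in siControl Ps. The siAPC libraries had it at 4.45, 4.44, 4.62 and 4.57 in CB and at 3.79, 3.53, 3.51 and 3.28 in Ps. The fractions stood well apart, by -0.97 in siControl (SE 0.10, adjusted p = 7.49e-08) and -0.99 in siAPC (SE 0.10, adjusted p = 6.73e-08). Irf3, which switches on the interferon genes after RNA sensing, was lower in Ps by 0.88 in siControl (SE 0.07), and Irf1, which binds similar elements after interferon gamma, was lower by 0.94 (SE 0.09). The receptor chains Ifnar1 and Ifnar2 were lower by 0.65 and 0.38, and Stat3, which carries signals of the interleukin 6 family, was lower by 0.41. Stat3 was at 0.02 after the correction for GC content and length, whereas the other 6 called genes of this role remained lower.

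Irf7, the factor that amplifies the interferon response, was the only gene of this role that did not pass with the authors' scaling. Its log2 CPM was 2.46, 2.41, 2.14 and 2.30 in siControl CB and 2.26, 1.83, 2.07 and 2.29 in siControl Ps, which overlap. With siAPC it was 2.05, 2.19, 2.09 and 2.21 in CB and 2.11, 1.41, 1.74 and 1.88 in Ps. Its difference was -0.22 (SE 0.15, adjusted p = 0.227) in siControl and -0.35 (SE 0.15, adjusted p = 0.054) in siAPC, with 95% intervals of -0.54 to 0.10 and -0.67 to -0.03. Irf7 was called lower in both when scaled to total listed reads, at -0.52 (adjusted p = 0.00466) and -0.51 (adjusted p = 0.00567), and with quantile normalization in siAPC (-0.51, adjusted p = 0.022), while after the correction for GC content and length it was at 0.16 and 0.04.

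Among the class I genes the peptide transporter was lowest in Ps relative to CB with the authors' scaling. Tap1 (chr17:34187553-34197225) had a log2 CPM of 5.88, 5.75, 5.55 and 5.74 in siControl CB and 4.55, 4.29, 4.41 and 4.45 in siControl Ps. Its siAPC values were 5.64, 5.46, 5.75 and 5.58 in CB and 4.51, 4.36, 4.50 and 4.35 in Ps, where CB was above Ps by at least 1.09 in every same-numbered pair. Tap1 had a log2 fold change of -1.30 in siControl (SE 0.08, adjusted p = 2.41e-10) and -1.18 in siAPC (SE 0.08, adjusted p = 1.23e-09). Tap2, its partner in the transporter, fell between 6.05, 6.04, 5.72 and 5.81 in siControl CB and 4.74, 4.67, 4.74 and 4.64 in siControl Ps, by 1.21 (SE 0.09, adjusted p = 1.18e-09), and in siAPC it was at 6.08, 5.92, 6.06 and 5.88 in CB and at 5.01, 4.71, 4.80 and 4.62 in Ps, with a log2 fold change of -1.20. Tapasin (Tapbp) was lower in Ps by 0.84 in siControl. After the correction for GC content and length Tap1, Tap2 and Tapbp were still called lower in siControl, at -0.83, -0.74 and -0.44, and H2-K1 was then the lowest at -0.87.

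The heavy chains were lower in Ps, and the light chain was higher with the authors' scaling but lower after the correction for GC content and length. H2-K1 (chr17:33996017-34000347) had a log2 CPM of 5.81, 5.71, 5.49 and 5.72 in siControl CB and 4.77, 4.73, 4.85 and 4.72 in siControl Ps. Its siAPC libraries read 5.61, 5.61, 5.56 and 5.55 in CB and 4.88, 4.77, 4.83 and 4.75 in Ps. The groups of the fractions did not overlap, and the log2 fold change was -0.91 in siControl (SE 0.07, adjusted p = 1.51e-09) and -0.78 in siAPC (SE 0.07, adjusted p = 1.6e-08). H2-D1 was lower by 0.39 in both (SE 0.07), and in siControl it was at -0.69 when scaled to total listed reads and at -0.22 after the correction for GC content and length, called lower in each. Class I heavy chains vary between mouse strains and share sequence with the H2-Q genes (9.63% of the 50-base words of H2-K1 and 12.8% of those of H2-D1 occur elsewhere), which limits how far their levels can be assigned.

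B2m (chr2:122147686-122153083), which pairs with every class I heavy chain, had a log2 CPM of 7.67, 7.71, 7.58 and 7.62 in siControl CB and 8.22, 8.28, 7.74 and 7.79 in siControl Ps. Its siAPC libraries read 7.64, 7.65, 7.56 and 7.65 in CB and 8.09, 8.29, 7.84 and 7.86 in Ps. Replicates 1 and 2 of Ps were high and replicates 3 and 4 close to CB, although all Ps libraries exceeded all CB libraries. On the log2 scale B2m was higher in Ps by 0.36 in siControl (SE 0.11, adjusted p = 0.00792) and by 0.40 in siAPC (SE 0.11, adjusted p = 0.00418). This direction was not kept after the correction for GC content and length, where B2m was at -0.62 in siControl and -0.62 in siAPC and called lower. Scaled to total listed reads it was at 0.07 and 0.24 and did not pass. B2m has a short transcript of low GC content (860 bases, 41.2% GC), against 3911 bases and 55.8% GC for Tap1.

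**Figure D3:**
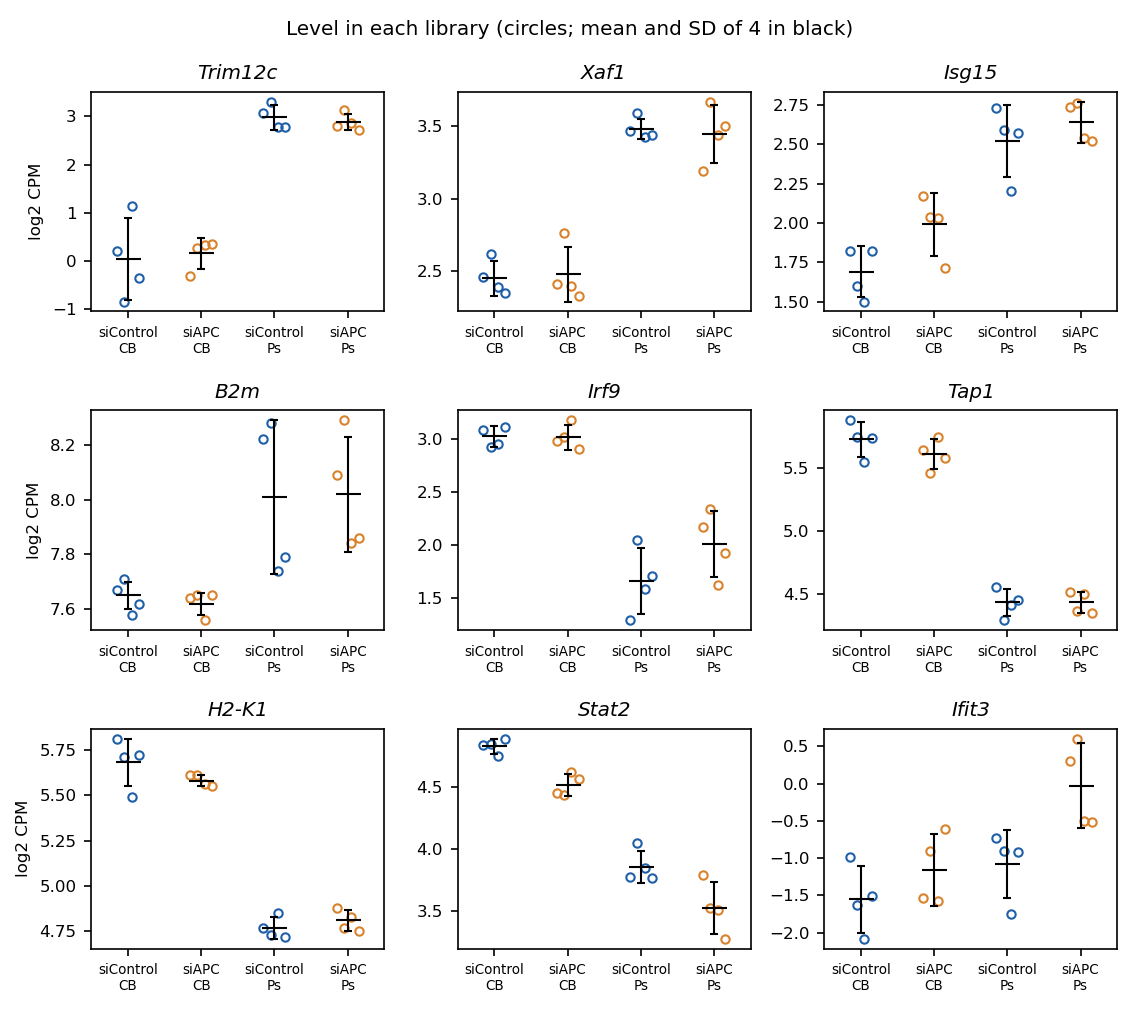
Log2 CPM of 9 of the genes in each of 16 libraries (circles, blue for siControl and orange for siAPC), with the mean and SD of 4 libraries in black. Each panel has its own scale. Trim12c, Xaf1, Isg15 and B2m are higher in Ps and Irf9, Tap1, H2-K1 and Stat2 lower, where the B2m direction turns after correction for GC content and length.

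Parp9 and Dtx3l encode an ADP-ribosyltransferase and a ubiquitin ligase that work as a complex and are transcribed from opposite strands with overlapping ends. Parp9 had a log2 CPM of 2.91, 2.59, 3.13 and 2.76 in siControl CB and 3.47, 3.32, 3.18 and 3.34 in siControl Ps, which come close at replicate 3 without overlapping. It was higher in Ps by 0.48 in siControl (SE 0.12, adjusted p = 0.00272) and by 0.70 in siAPC (SE 0.12, adjusted p = 8.63e-05), while Dtx3l did not pass (-0.17 and 0.03). Scaled to total listed reads, Parp9 in siControl was at 0.18 and did not pass, while Dtx3l was at -0.47 and called lower (adjusted p = 6.3e-04). Trim25, a ubiquitin ligase that activates RIG-I, was lower by 0.39 in siControl (SE 0.09) and by 0.28 in siAPC (SE 0.09), and after the correction for GC content and length it was at -0.10 and -0.01 and did not pass. The siAPC call was also lost without the 4 libraries that fell with GC content (-0.23, adjusted p = 0.0629).

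The sensors went in both directions. Eif2ak2 encodes PKR, a kinase that binds RNA duplexes and stops translation. Its log2 CPM was 1.94, 1.48, 2.91 and 2.21 in siControl CB and 2.83, 3.11, 2.81 and 2.96 in siControl Ps, and CB replicate 3 lay within the Ps range. In siAPC it was 1.70, 2.21, 1.75 and 1.96 in CB and 2.98, 3.35, 3.14 and 2.68 in Ps, with no overlap. Eif2ak2 was higher in Ps by 0.79 in siControl (SE 0.22, adjusted p = 0.00481) and by 1.13 in siAPC (SE 0.22, adjusted p = 2.44e-04). Scaled to total listed reads, the siControl value was 0.50 and did not pass.

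Dhx58, which encodes LGP2, a relative of RIG-I that lacks its signalling part, had a log2 CPM of 0.99, 1.18, 1.20 and 1.53 in siControl CB and 0.01, -0.22, 0.75 and -0.07 in siControl Ps. In siAPC it was 1.10, 0.86, 0.55 and 0.36 in CB and 0.58, -0.04, 0.73 and -0.65 in Ps, which overlap. It was lower in Ps by 1.11 in siControl (SE 0.29, adjusted p = 0.00286), and its log2 fold change in siAPC was -0.56 (SE 0.29, adjusted p = 0.103), which passed when scaled to total listed reads (-0.72, adjusted p = 0.0437) and with quantile normalization (-0.76, adjusted p = 0.0389). Each Dhx58 value rested on 10 to 53 reads. Adar, which edits adenosines in RNA duplexes, was lower in Ps by 0.80 in siControl and by 0.85 in siAPC, and Mavs, the mitochondrial adaptor of the RIG-I family, was lower by 0.65 and 0.53. After the correction for GC content and length Adar was at -0.32 and -0.35 and Mavs at -0.35 and -0.22, all called lower. Ddx58 and Tlr3 did not pass in either, with log2 fold changes of -0.04 and 0.18 in siControl. Scaled to total listed reads, Ddx58 was called lower in siControl (-0.34, adjusted p = 0.009).

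In siAPC, 12 of the 35 genes were higher in Ps, against 29.8% of all genes, and 15 were lower, against 30.9%. The fractions of each siRNA are separate libraries. Of the genes higher in siControl 10 were also higher in siAPC, which is 90.9% of the 11 and 83.3% of the 12. For all genes the corresponding shares were 86.2% and 84.3%. The siAPC call of Ifi27 (0.17, adjusted p = 0.0327) was lost in 5 of the 8 fits without 1 library of siAPC and when scaled to total listed reads (0.01), and after the correction for GC content and length it was called lower (-0.27). Ifitm2 was called higher in siControl alone and Ifit2 and Ifit3 in siAPC alone, and the difference between siRNAs did not pass for any of them. The siAPC call of Ifit3 (1.13, SE 0.37, adjusted p = 0.0123) was lost after the correction for GC content and length (0.83, adjusted p = 0.0558) and without siAPC Ps replicate 2. That library alone held Ifit3 above the level at which the paper kept genes. The Ifitm2 call was lost with quantile normalization (0.07, adjusted p = 0.16) and in 2 of the 8 fits without 1 library of siControl. Without the 4 libraries that fell with GC content Ifit2 was called higher in siControl too. Of the genes lower in siControl 15 were also lower in siAPC, with Dhx58 as the exception under the authors' scaling, which is 93.8% of the 16 and 100% of the 15, against 87% and 87.8% for all genes. The median log2 fold change in siAPC was -0.06, against 0.01 for all genes.

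Ifit2 and Ifit3 encode antiviral proteins induced by interferon and were the effectors with the widest spread. Ifit2 (chr19:34550694-34576419) had a log2 CPM of 0.29, 0.34, 1.95 and 0.85 in siControl CB and 2.08, 1.65, 0.91 and 1.05 in siControl Ps. In siAPC it was -0.31, 1.28, 0.27 and -0.38 in CB and 1.40, 2.07, 1.38 and 1.26 in Ps. In siControl the fractions overlapped, with CB replicate 3 (1.95) within the Ps range. The lowest siAPC Ps library lay just below the highest siAPC CB library. Ps minus CB was 0.57 in siControl (SE 0.39, adjusted p = 0.214) and 1.31 in siAPC (SE 0.39, adjusted p = 0.00653). Without the 4 libraries that fell with GC content, siControl CB replicate 3 among them, the siControl value was 0.85 and passed (adjusted p = 0.0193). Ifit2 was also called higher in siControl Ps when siControl CB replicate 3 alone was left out. The Ifit2 values rested on 13 to 89 reads.

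The rule of the study for localized RNAs, a fold change above 2 with an unadjusted p below 0.05, was applied to the limma fit made here. That fit has no voom weights, so the genes may differ from the study's own list. By this rule 3 of the 35 were Ps-enriched in siControl (Samd9l, Xaf1 and Trim12c), against 7.19% of all genes. By the mirror rule 4 were CB-enriched (Dhx58, Irf9, Tap1 and Tap2), against 6.82%. In siAPC 5 were Ps-enriched (Eif2ak2, Ifit2, Ifit3, Samd9l and Trim12c), against 7.67%, and 3 were CB-enriched (Irf9, Tap1 and Tap2), against 5.05%. Xaf1 lay just above the fold threshold in siControl (2.04-fold) and just below it in siAPC (1.97-fold).

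The Ps/CB ratio of the 35 genes was set beside other features of the genes. Among them 10 are translated at the endoplasmic reticulum, namely the 6 class I genes, Bst2, Ifnar1, Ifnar2 and Tlr3, so their counts largely repeat those of the class I genes. Of these 10 genes 1 was higher in Ps (B2m, called lower after the correction for GC content and length) and 7 lower in siControl, against 29.1% and 31.2% of all genes, with a median of -0.52, and the counts in siAPC were the same with a median of -0.47. Of the 21 genes whose proteins are made on free ribosomes 7 were higher and 8 lower in siControl, and 9 higher and 7 lower in siAPC. Of 4 other membrane proteins 3 were higher in siControl (Ifitm2, Ifitm3 and Ifi27) and 1 lower (Mavs), where all 4 were called lower after the correction for GC content and length. In siAPC 2 of these 4 were higher and 1 lower. Across the 35 genes the Spearman correlation of the Ps/CB ratio with transcript GC content was -0.61 in siControl and -0.69 in siAPC, and with transcript length -0.19 and -0.16. Across the 12875 genes with annotation the values for GC content were -0.34 and -0.44, and for length -0.32 and -0.28. These correlations are across genes, which are not independent replicates, and the points of one siRNA share the same 8 libraries. The part of GC content and length in the ratios was not tested beyond the loess correction.

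The counts were also taken by ISRE letters, with no test of the difference. Of the 11 with a match, 7 were higher in Ps of siControl and 1 (Stat2) lower, against 29.1% and 31.2% of all genes, with a median of 0.47, while of the 20 with a window and no match 2 were higher and 13 lower, with a median of -0.40. The corresponding numbers in siAPC were 7 and 1 with a median of 0.49, and 3 and 13 with a median of -0.43. After the correction for GC content and length 2 of the 7 were still called higher (Eif2ak2 and Trim12c), Isg15 (0.25) and Gbp2 (0.34) lost their calls, and Ifitm2, Ifitm3 and B2m turned direction.

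**Figure D4:**
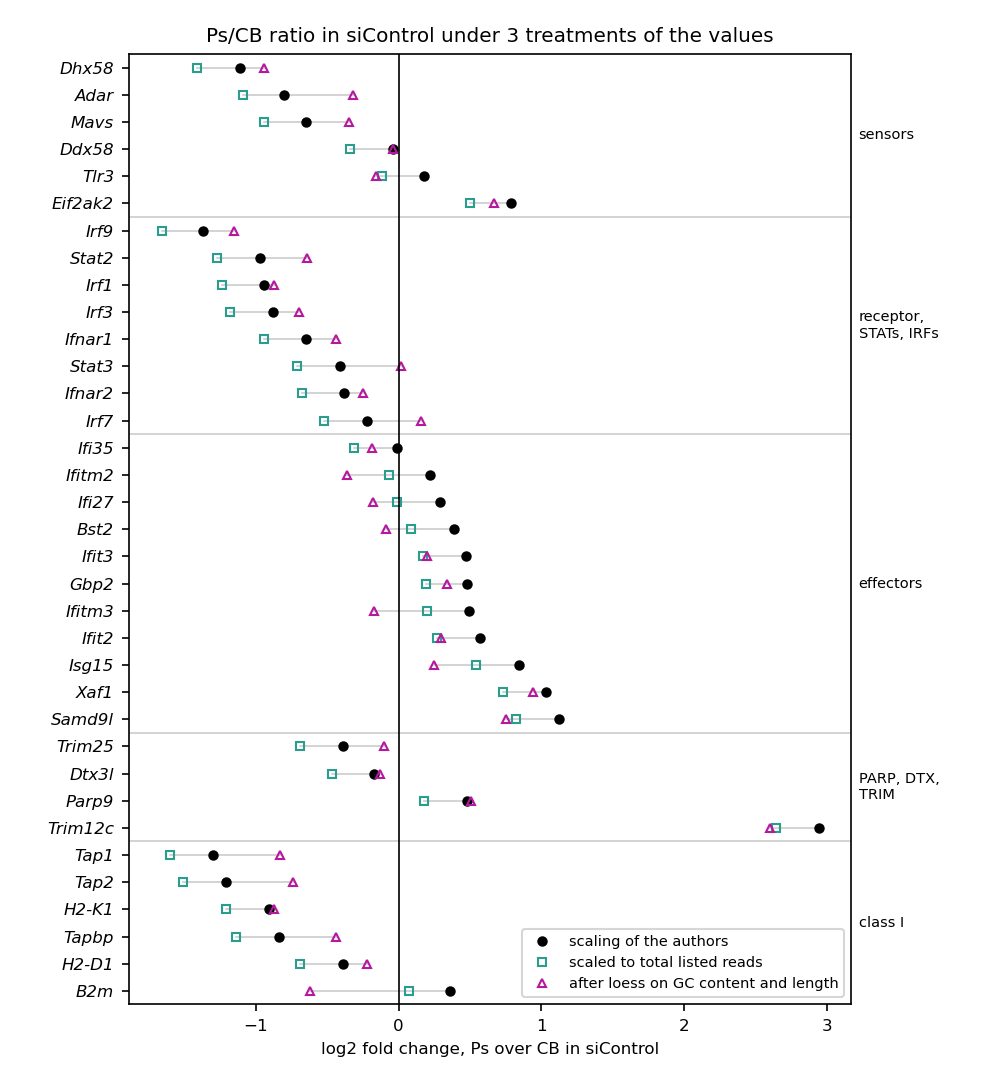
Log2 fold change of Ps over CB in siControl for the 35 listed genes by role, with the authors' scaling (black circles), scaled to total listed reads (green squares) and after a loess correction for GC content and length (purple triangles). Trim12c stays between 2.60 and 2.94 and Tap1 between -1.60 and -0.83, while B2m goes from 0.36 to -0.62 and Ifitm2 from 0.22 to -0.36.

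The second comparison asked whether the levels changed when Apc was lowered. In CB 0 of the 35 genes were higher with siAPC at an adjusted p below 0.05, against 7.52% of all genes, and 2 were lower, against 5.87% of all genes. At an unadjusted p below 0.05, 0 were higher and 4 lower, against 12.6% and 13.9% of all genes. The genes that fell were Irf3 and Stat2. Irf3 (chr7:44997648-45002848) had a log2 CPM of 6.11, 5.99, 5.97 and 6.05 in siControl CB and 5.78, 5.71, 5.75 and 5.70 in siAPC CB, which do not overlap. It fell by 0.30 (SE 0.07, 1.23-fold, adjusted p = 0.00529), a call that every alternative run kept. Stat2 fell by 0.31 in CB (SE 0.10, adjusted p = 0.0381), and in Ps, where replicate 1 of siAPC (3.79) lay within the control range, it fell by 0.34 (SE 0.10, adjusted p = 0.0179). The Stat2 call in CB was lost in 6 of the 8 fits without 1 library of these groups, with values between -0.35 and -0.29. In Ps the Stat2 call was lost in 2 of the 8 fits without 1 Ps library, with values between -0.42 and -0.25. Without the 4 libraries that fell with GC content Stat2 did not pass in CB (-0.32, adjusted p = 0.0509) or in Ps (-0.28, adjusted p = 0.065), while Irf1 and Ifi27 were also called lower in CB.

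In Ps 1 of the 35 genes was higher with siAPC, against 10.7% of all genes, and 3 were lower, against 11.2%. The higher gene was Ifit3 (chr19:34583531-34588731), with a log2 CPM of -0.73, -0.91, -1.75 and -0.92 in siControl Ps and 0.31, 0.60, -0.50 and -0.52 in siAPC Ps. In CB it was -0.98, -1.63, -2.08 and -1.51 in siControl and -1.53, -0.90, -1.58 and -0.61 in siAPC, which overlap. It was higher in siAPC Ps by 1.05 (SE 0.37, adjusted p = 0.0464), but on only 4 to 7 reads per siControl Ps library and 11 to 22 per siAPC Ps library. Of its values only that of siAPC Ps replicate 2 (0.60) exceeded the level above which the paper kept genes. Ifit3 may thus be listed only through the group where it was high, and its call carries that limit. The call was lost in 5 of the 8 fits without 1 library, with quantile normalization, with a pseudocount of 2 reads and when the 4 libraries that fell with GC content were left out. In addition 51.2% of its 50-base words also occur in Ifit3b, so the value may belong to either gene.

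Besides Stat2, Ifi27 and Ifitm2 fell in Ps. Ifi27, a small protein of internal membranes (chr12:103434211-103440239), had a log2 CPM of 6.55, 6.46, 6.49 and 6.47 in siControl Ps and 6.22, 6.28, 6.25 and 6.15 in siAPC Ps, without overlap. In CB it was 6.28, 6.35, 6.0 and 6.18 in siControl and 6.09, 6.10, 6.01 and 6.03 in siAPC. It fell in Ps by 0.26 (SE 0.07, adjusted p = 0.00682), and in CB the difference was -0.14 (SE 0.07, adjusted p = 0.167). Ifitm2 (chr7:140954837-140955987) was at 9.34, 9.11, 9.23 and 9.15 in siControl Ps and at 8.98, 8.91, 9.0 and 9.08 in siAPC Ps, just short of overlap. In CB its values of 9.16, 9.07, 8.77 and 8.93 in siControl and 8.93, 8.85, 8.91 and 8.85 in siAPC overlap. It fell in Ps by 0.22 (SE 0.07, adjusted p = 0.0434), a call lost in 6 of the 8 fits without 1 library, with quantile normalization (-0.09, adjusted p = 0.171) and after the correction for GC content and length (-0.15, adjusted p = 0.0971). Scaled to total listed reads, which moved the median of all genes in this comparison to 0.14, Stat2, Ifi27 and Ifitm2 no longer passed in Ps and 7 of the 35 were called higher, against 22.6% of all genes with that scaling, among them Irf9, Tap2, Tapbp and H2-K1.

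The remaining genes gave no call with siAPC, and the intervals state how large a change they allow. With the replicate number as a block Ifnar2 was also called lower in Ps (-0.23, adjusted p = 0.018). For Isg15 the 95% interval of the log2 difference was -0.00 to 0.61 in CB and -0.19 to 0.42 in Ps. For B2m it was -0.25 to 0.21 in CB and -0.22 to 0.24 in Ps, and for H2-K1 -0.24 to 0.04 and -0.10 to 0.18. For Irf7 it was -0.52 to 0.13 in CB and -0.65 to -0.01 in Ps. After the correction for GC content and length Irf7 (-0.42), Irf3 (-0.23) and Ifnar2 (-0.29) were called lower in Ps, and Ifnar2 (-0.24), Irf1 (-0.28) and Ifi27 (-0.15) in CB. None of the 6 class I genes was called in either fraction with the authors' scaling, and their differences lay between -0.12 and 0.09. After the correction for GC content and length Tap1 (-0.24), H2-K1 (-0.18) and H2-D1 (-0.15) were called lower in CB and H2-D1 (-0.13) in Ps, and scaled to total listed reads Tap2, Tapbp and H2-K1 were called higher in Ps. The median of the 35 was -0.09 in CB and 0.01 in Ps, against -0.04 and -0.02 for all genes.

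**Figure D5:**
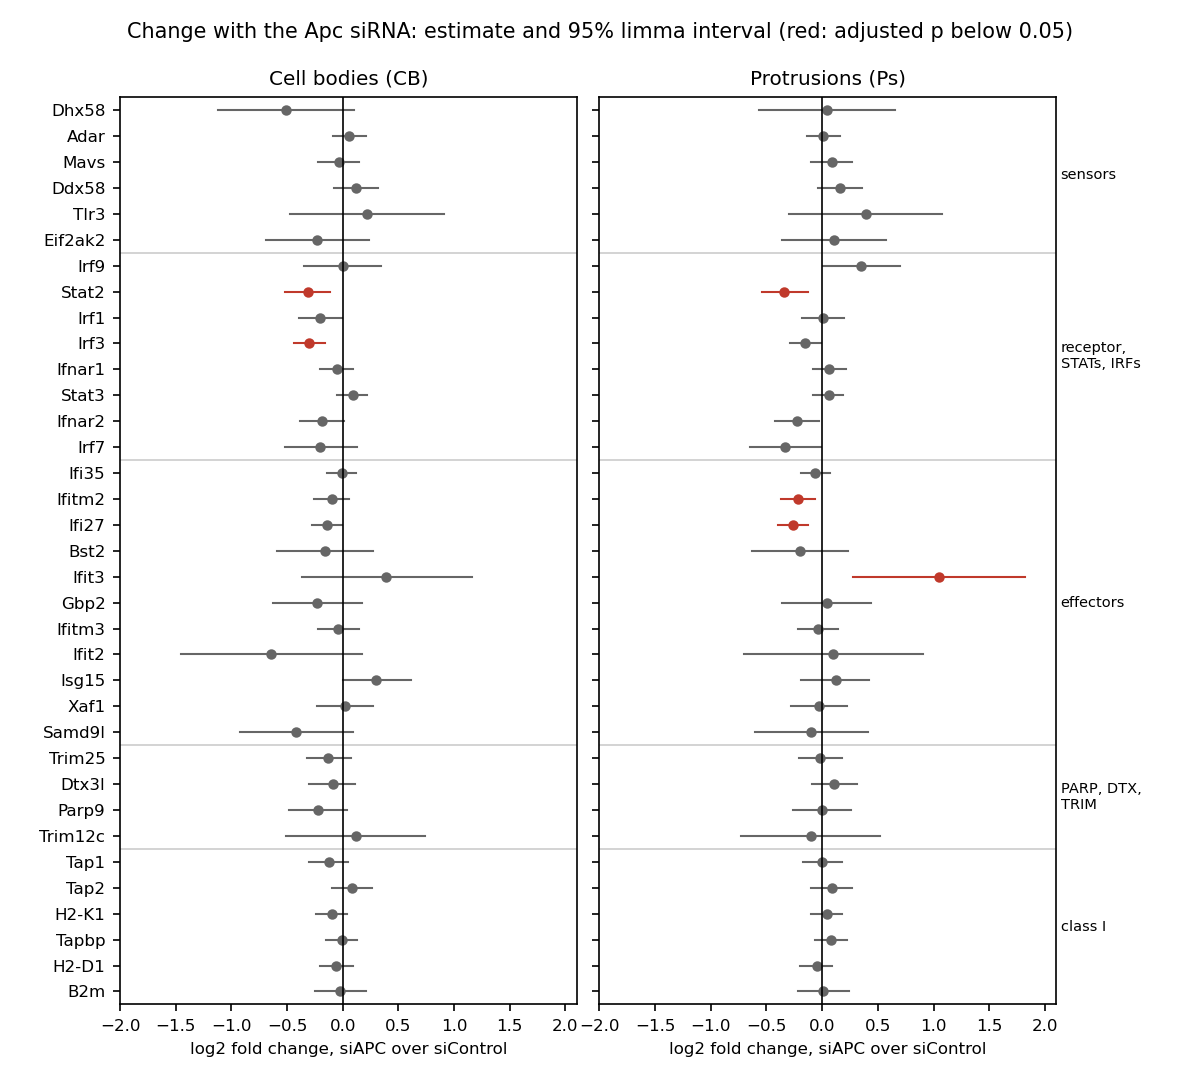
Log2 fold change of siAPC over siControl for the 35 listed genes in CB (left) and Ps (right), with the 95% limma interval as a line and red for an adjusted p below 0.05. Irf3 and Stat2 in CB and Ifit3, Stat2, Ifi27 and Ifitm2 in Ps are red, and the class I genes lie between -0.12 and 0.09.

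The third comparison was the change of the Ps/CB ratio with siAPC, written log2(Diff FC). None of the 35 genes passed it, and 0.0231% of all genes did (3 genes). At an unadjusted p below 0.05 the number was also 0 for the 35 genes. The most positive values were those of Ifit2 (0.75, SE 0.55, adjusted p = 0.981, and 0.38 without siControl CB replicate 3) and Ifit3 (0.66, SE 0.52, adjusted p = 0.981). The most negative were those of Trim12c (-0.22, SE 0.42, adjusted p = 0.982, and -0.59 to 0.07 in fits without 1 library) and Isg15 (-0.19, SE 0.20, adjusted p = 0.981). For well-read genes the intervals were narrow, with -0.06 to 0.34 for H2-K1 and -0.12 to 0.37 for Tap1, and for Ifit2 the interval of -0.40 to 1.89 allowed a sizeable change. The median was 0.09, against 0.00 for all genes.

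Other genes of the pathway, from lists chosen by name with earlier results of these data known, were counted in the same fits. Of 40 listed among 72 other interferon-stimulated genes, 15 were higher (37.5%) and 10 lower (25%) in siControl Ps, against 29.1% and 31.2% of all genes. Those higher included Ifi203 (1.47), Ifi204 (1.31) and Isg20 (0.80, a ribonuclease), and those lower included Helz2 (-1.43) and Lgals3bp (-1.30). Of 30 listed among 38 other sensing and signalling genes, 4 were higher (13.3%) and 18 lower (60%). Jak1 (0.59) and Jak2 (0.82), kinases of the interferon receptors, were among the 4, while Tyk2 (-0.54), the partner kinase on IFNAR1, and Ifngr1 (-0.82), a chain of the interferon gamma receptor, were lower. Of 24 listed among 28 other class I pathway genes, 6 were higher (25%), among them the proteasome activator genes Psme1 (0.54) and Psme2 (0.50), and 10 lower (41.7%), among them H2-M3 (-1.18). In siAPC the corresponding numbers were 15 and 11, 4 and 19, and 6 and 6, against 29.8% and 30.9% of all genes, and the median of the class I pathway list was -0.17 in siControl and 0.03 in siAPC.

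With siAPC the calls in CB were 2 higher and 3 lower of the interferon-stimulated genes, 1 and 1 of the sensing and signalling genes, and 0 and 3 of the class I pathway genes, against 7.52% and 5.87% of all genes. In Ps the corresponding numbers were 3 and 5, 4 and 3, and 1 and 3, against 10.7% and 11.2%. Zbp1, a sensor of Z-form nucleic acids, was higher by 3.10 in CB and 3.25 in Ps, the largest rise in the interferon-stimulated list. The values of that list went down to -1.55 in CB and -1.52 in Ps. Its median was -0.02 in CB and -0.01 in Ps, with 19 of the 40 genes above 0 in each. Socs1, an inhibitor of JAK kinases, was higher by 1.00 in CB and 1.22 in Ps. H2-T10 and H2-T22, class I genes outside the classical set, were lower by 0.51 and 0.70 in CB and by 0.77 and 0.87 in Ps. None of the listed genes of these 3 lists passed for log2(Diff FC).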

How the data were processed

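The authors sequenced 16 stranded total RNA libraries (HiSeq2500), aligned them with STAR 2.4.2a to mm10 with GENCODE annotation, counted reads by gene (Rsubread) and used voom of limma 3.26.1 for normalization. By the paper's account genes were kept if their log CPM exceeded 0.5 in at least 1 sample. The deposited values are log2 CPM of 13015 genes, with 0.5 reads added to each count and the scaling factors of the authors included. Inverting this gave whole reads within 0.001 for 100% of 208240 values, from which depths and read numbers were taken. The floor of 3 reads covers counting error only. Whether counting used strand is not stated, so overlapping genes are uncertain.

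Here limma 3.58.1 (R 4.3.3, lmFit and eBayes with an intensity trend) was fitted to all 16 libraries with 4 group means and no block. P-values were adjusted by Benjamini-Hochberg over 13015 genes, and calls used an adjusted p below 0.05. The fit was tested on simulated data, and no result of that test is used here. Levels per kb divided CPM by exon length (GENCODE M21, GRCm38), and promoter windows came from RefSeq.

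The members and lists were chosen with earlier results of these data known. Given by library are Apc, the 4 called members with the largest change per direction and contrast, the 2 most extreme per direction for log2(Diff FC), and Isg15, Irf7, B2m and H2-K1, besides Parp9, chosen after its values were seen.

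The replicate numbers of the labels were checked by the correlation of deviations from group means. Every same-numbered pair exceeded 0.1 for CB and Ps in siAPC (mean 0.50, lowest 0.42) and for the siRNAs in Ps (mean 0.34, lowest 0.16), but not for CB and Ps in siControl (mean 0.13, lowest -0.12) or for the siRNAs in CB (mean -0.03, lowest -0.34). No pair of replicates was alike within sampling noise (chi-squared per degree of freedom 2.06 to 28.2). Alternatives were a replicate block, scaling to total listed reads, quantile normalization, a pseudocount of 2 reads, genes with a mean of at least 1, leaving out each library or the 4 that fell with GC content, and, chosen after seeing the data, voom weights and a loess correction for GC content and length.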

Additional observations from a re-analysis of the deposited data

Results flagged for a closer look

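Within single groups of 4 libraries, 6 of the 140 sets of values tested (35 genes in 4 groups) held 1 library that stood far from the other 3 by Dixon's test, where chance gives about 1 in 20. Gbp2 was at 1.68 log2 CPM in siControl Ps replicate 4 (45 reads), against 2.51 to 2.68 in the others. Trim12c was at -0.31 in siAPC CB replicate 1 (17 reads), against 0.26 to 0.36. Parp9 was at 2.87 in siAPC CB replicate 2 (143 reads), against 2.52 to 2.58. Trim25 was at 5.25 in siAPC Ps replicate 2 (564 reads), against 5.46 to 5.49. Tapbp was at 8.42 in siControl CB replicate 3 (7959 reads), against 8.65 to 8.70. B2m was at 7.56 in siAPC CB replicate 3 (3660 reads), against 7.64 to 7.65. The Parp9, Trim25 and Tapbp values lie in libraries whose expression fell with GC content, and the B2m value in a library whose expression rose with it (Spearman correlation 0.54).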

How the results depend on the processing

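Leaving out 1 library of the groups compared gave 9 to 12 higher and 16 lower in siControl Ps (26.9% to 30.7% and 29% to 31.7% of all genes). In siAPC Ps against CB it gave 10 to 12 higher and 14 to 16 lower (27.2% to 29.3% and 28.7% to 30.3% of all genes). With siAPC in Ps it gave 0 to 2 higher and 2 lower (9.11% to 10.5% and 9.08% to 11.7% of all genes). With siAPC in CB it gave 0 higher (5.62% to 6.89% of all genes) and 1 to 5 lower, where the 5 came without siControl CB replicate 3 (Stat2, Irf3, Ifnar2, Irf1 and Ifi27). Without that library 7.69% of all genes were lower with siAPC in CB, against 3.28% to 4.49% without any other single CB library. In the fits without 1 library the siAPC difference of B2m in Ps went from -0.08 to 0.10, and log2(Diff FC) from -0.59 to 0.07 for Trim12c and from -0.06 to 0.13 for B2m. Scaled to total listed reads, 1 gene was lower with siAPC in CB (against 5.12% of all genes with that scaling), and 7 were higher and 0 lower with siAPC in Ps. In siControl Ps 5 were higher, where 6 calls of higher genes were lost and 4 of lower genes gained (Ddx58, Irf7, Ifi35 and Dtx3l). In siAPC Ps against CB 2 calls of higher genes were lost (Ifi27 and B2m) and 3 of lower genes gained (Dhx58, Irf7 and Ifi35). That scaling moved the median of all genes to -0.30 for Ps against CB in siControl, -0.14 in siAPC, 0.14 for siAPC in Ps and 0.15 for log2(Diff FC), and the split of all calls to 2005 higher and 6193 lower, 2793 and 5114, and 2943 and 550 in the first 3 of these. It turned the sign of 3 of the 35 values in each fraction comparison and in siAPC CB, 8 in siAPC Ps and 11 of log2(Diff FC), among them Ifi27 (-0.01), Ifitm2 (-0.07) and Tlr3 (-0.12) in siControl Ps and the log2(Diff FC) of Irf7 (0.01). With quantile normalization, a pseudocount of 2 reads, or when the 4 libraries that fell with GC content were left out, 0 were higher with siAPC in Ps, against 11.4%, 10.5% and 11.7% of all genes. The 0 with genes with a mean of at least 1 (against 10.9% of all genes) says nothing of Ifit3, which that filter removed. After the loess correction 8 were lower with siAPC in CB (against 14.3% of all genes with that correction), 6 lower with siAPC in Ps (against 21.6%), 5 higher and 19 lower in siControl Ps (against 28.9% and 26%) and 7 higher and 17 lower in siAPC Ps against CB (against 25.7% and 25%). It turned the sign of 8 values in siControl Ps, 10 in siAPC Ps against CB, 4 with siAPC in CB, 12 with siAPC in Ps and 5 of log2(Diff FC). These included, in siControl Ps, Stat3 (0.02), Irf7 (0.16), Ifi27 (-0.18), Ifitm2 (-0.36), Ifitm3 (-0.17) and B2m (-0.62), in siAPC Ps Stat3 (0.00), Irf7 (0.04), Ifi27 (-0.27), Ifitm2 (-0.42, called lower), Ifitm3 (-0.13) and B2m (-0.62), with siAPC B2m in CB (0.05) and H2-K1 in Ps (-0.03), and the log2(Diff FC) of B2m (-0.00). Of the called values that kept their sign, 9 of 22 in siControl Ps and 11 of 23 in siAPC Ps against CB moved by over 1.5 times. The cause was not tested. With the replicate block no call was lost. Ifnar2 was also lower with siAPC in Ps (4 lower, against 16.6% of all genes). Bst2 was also higher in Ps (12 higher in siControl and 13 in siAPC, against 30.5% and 31.4% of all genes). In the other 2 pairings the samples share only a number. The planned count tests on the recovered reads were not run. Depth limited Ifit3, Ifit2, Dhx58, Tlr3 and Trim12c most, which rested on 4 to 138 reads per library.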
